A study of Mus musculus with 6 samples.

Results

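The genes described here are 10 that drive entry into mitosis and exit from it: the cyclins Ccna2, Ccnb1 and Ccnb2, the kinases Cdk1, Plk1, Aurka and Aurkb, the activators Cdc20 and Fzr1 of the anaphase-promoting complex (APC/C), and Ube2c, its E2 enzyme. They were taken by name from 27998 gene rows, and all 10 had UMIs in every library. Their transcripts were measured by single-cell RNA sequencing of testicular germ cells of mouse fetuses at embryonic day 14.5, from 3 control samples with the genotype label wildtype and 3 with the label Rb1 cKO, in which the retinoblastoma gene was conditionally deleted. Both groups had a mixed C57/B6 and 129 background, and cells of both were sorted live for the red fluorescent protein tdTomato before capture on a 10x Chromium Controller with v2 chemistry. The labels give neither the Cre driver nor the deleted part of Rb1, nor what the controls carry beside wildtype, although their cells were gated on tdTomato too. They also do not say whether replicates were separate animals, so each p-value reflects the spread among these libraries alone, and that spread may be technical. Cells carry the authors' cluster numbers, 0 to 4, which come without names.

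Cdk1 is the kinase that starts mitosis once it is bound to a cyclin. Cyclin A2 acts from S phase onward, and the B-type cyclins act in mitosis itself, with Plk1 and the Aurora kinases building the spindle and correcting chromosome attachment. The APC/C then ends mitosis by tagging cyclins and securin for destruction, first with Cdc20 and afterwards with Cdh1, the product of Fzr1, which keeps the cyclins low through G1. The retinoblastoma protein binds Cdh1 and E2F factors, and fetal male germ cells leave the mitotic cycle around the stage sampled here.

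After a filter of at least 500 genes and under 10% mitochondrial UMIs, 5154 of 5160 cells remained. A UMI marks 1 captured molecule. The libraries held 430 to 1354 cells and 7598511 to 17323152 UMIs, with medians of 12750 to 17600 UMIs per cell, and the 10 genes together took 0.173% to 0.201% of them. Each member rested on 348 UMIs (Aurkb in control 2) to 8492 UMIs (Ube2c in control 3) per library. Rb1 stood at 10.3, 8.82 and 6.87 CPM (a gene's UMIs scaled to the same library total) in controls 1 to 3 compared with 3.46, 3.73 and 3.57 CPM in cKO 1 to 3, from 27 to 119 UMIs. Its groups did not overlap. On the log2 scale the cKO level differed by -1.27 ± 0.19 (SE). The edgeR unadjusted p was 7.2e-05, and the adjusted p of 0.415 missed the threshold of 0.05. The 3′ reads may lie outside the deleted sequence, so this value need not show the deletion.

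The germ cell markers fixed for the check, such as Dazl and Ddx4, summed to 8648 to 9677 CPM per library. Other lists were far lower, but 3 libraries stood apart in some of them: Sertoli cell markers reached 31.4 CPM in control 3 against 9.05 to 15.3 CPM elsewhere, platelet markers 52.5 CPM in control 2 against 0.476 to 2.05 CPM, and erythroid markers were 6.15 CPM in cKO 1 against 21.4 to 33.4 CPM. Macrophage markers were 9.70 CPM in control 3 against 1.98 to 4.84 CPM, and interstitial stroma markers 9.34 CPM in control 2 against 3.57 to 5.14 CPM. Of the lists' defining genes, Hsd3b1 and Insl3 (Leydig cells) and Upk3b (surface epithelium) were at 0. A total of 9 barcodes occurred in more than 1 library.

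The start regions of genes that peak in mitosis often hold a CHR element, bound by the DREAM and MMB complexes, and CCAAT boxes, bound by NF-Y. Since members of the set moved together or apart, the RefSeq windows from 250 bases before to 50 after the start are shown here for the trio that moved most closely together (Ccnb1, Cdc20 and Ube2c), for Ccnb2 and Cdk1, which ran in opposite directions over the sums of a library and a cluster, and for Fzr1. Letters in capitals are TTTGAA (the CHR core searched) and CCAAT, both also as their reverse complements TTCAAA and ATTGG. All are from GRCm38.p6, 5′ to 3′ in the gene's own direction. Ccnb1 is at chr13:100786437-100786736 (minus strand), Cdc20 at chr4:118437294-118437593 (minus), Ube2c at chr2:164769679-164769978 (plus), Ccnb2 at chr9:70421505-70421804 (minus), Cdk1 at chr10:69352863-69353162 (minus) and Fzr1 at chr10:81378321-81378620 (minus).
Ccnb1: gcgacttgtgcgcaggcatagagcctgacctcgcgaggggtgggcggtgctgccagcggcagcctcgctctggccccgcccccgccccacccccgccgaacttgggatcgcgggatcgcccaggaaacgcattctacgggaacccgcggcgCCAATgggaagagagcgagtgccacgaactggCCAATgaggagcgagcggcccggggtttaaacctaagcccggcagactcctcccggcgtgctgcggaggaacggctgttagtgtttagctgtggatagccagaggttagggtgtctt
Cdc20: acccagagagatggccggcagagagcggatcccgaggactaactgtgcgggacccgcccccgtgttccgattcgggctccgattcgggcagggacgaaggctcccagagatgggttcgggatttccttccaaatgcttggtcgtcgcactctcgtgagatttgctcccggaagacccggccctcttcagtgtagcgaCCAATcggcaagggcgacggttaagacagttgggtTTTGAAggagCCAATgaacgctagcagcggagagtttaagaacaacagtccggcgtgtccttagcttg
Ube2c: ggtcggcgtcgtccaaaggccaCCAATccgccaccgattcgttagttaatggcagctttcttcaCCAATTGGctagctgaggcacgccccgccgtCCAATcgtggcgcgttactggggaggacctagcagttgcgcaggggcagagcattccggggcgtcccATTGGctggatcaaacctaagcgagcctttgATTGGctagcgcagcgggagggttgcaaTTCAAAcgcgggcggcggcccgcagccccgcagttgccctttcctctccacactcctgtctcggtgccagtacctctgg
Ccnb2: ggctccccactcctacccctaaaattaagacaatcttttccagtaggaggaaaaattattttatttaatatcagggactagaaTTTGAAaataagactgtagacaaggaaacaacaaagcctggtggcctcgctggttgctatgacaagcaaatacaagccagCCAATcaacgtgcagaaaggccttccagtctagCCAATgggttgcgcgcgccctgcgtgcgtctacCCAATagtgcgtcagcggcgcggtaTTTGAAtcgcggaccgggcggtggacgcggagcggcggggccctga
Cdk1: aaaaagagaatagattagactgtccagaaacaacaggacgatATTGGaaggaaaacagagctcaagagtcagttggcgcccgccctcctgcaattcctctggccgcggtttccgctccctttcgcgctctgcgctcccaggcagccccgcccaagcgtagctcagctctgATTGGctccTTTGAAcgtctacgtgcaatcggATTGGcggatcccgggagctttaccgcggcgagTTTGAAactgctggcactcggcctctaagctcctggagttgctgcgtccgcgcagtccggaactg
Fzr1: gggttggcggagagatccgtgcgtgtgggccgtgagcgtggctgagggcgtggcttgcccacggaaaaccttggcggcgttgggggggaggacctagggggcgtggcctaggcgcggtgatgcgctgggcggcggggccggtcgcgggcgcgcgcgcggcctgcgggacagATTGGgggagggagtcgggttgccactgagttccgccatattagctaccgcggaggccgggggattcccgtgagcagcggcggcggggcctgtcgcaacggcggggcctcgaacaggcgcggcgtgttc

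Of the 10 genes, 8 had an entry among the promoters, while Ccna2 and Aurkb had none and were not examined. CCAAT was in all 8 windows and in 37.4% of the 32851 promoters of the same length, and 2 or more copies were in 6 of 8 against 11.7%. TTTGAA was in 6 of 8 windows against 17.9%, and both motifs were in 6 of 8 against 6.95%. Cdc20 held TTTGAA beginning 18 bases before the start, between 2 CCAAT boxes that begin 53 and 8 bases before it. Cdk1 and Ccnb2 had 2 copies of TTTGAA and 3 CCAAT boxes each, and Ube2c had 6 CCAAT matches, of which 2 overlap. Ccnb1 and Fzr1 were the members without TTTGAA in the window among the 8 examined. Other forms of the CHR element were not searched, so this does not show that they lack one. A match describes the letters only.

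Among the cyclins, Ccnb1 separated the clusters most. Values below are CPM of the UMIs summed over a library's cells of 1 cluster, given as mean ± SD over the 6 libraries; the clusters were built from expression that includes these genes, so their differences are described and not tested. Because 3′ UMIs depend on the gene, levels are compared between clusters and not between genes, and fewer cells with a transcript and fewer molecules per cell cannot be told apart in such sums. Ccnb1, the main mitotic cyclin, stood at 557 ± 33.4 CPM in cluster 1 (495 to 592 CPM over libraries) and at 198 ± 15.2 CPM in cluster 0 (180 to 221 CPM). Clusters 2, 3 and 4, at 238 ± 21.9, 291 ± 65.8 and 211 ± 26.6 CPM, had means between these, and in the order of their means clusters 3, 2, 4 and 0 each overlapped the next. In every library, Ccnb1 was 2.59 to 3.05 times higher in cluster 1 than in cluster 0.

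Ccnb2 and Ccna2 were much flatter. Ccnb2, a second B-type cyclin, had 345 ± 26.4 CPM in cluster 1, 296 ± 18.9 CPM in cluster 0, 296 ± 21.2 CPM in cluster 3, and 216 ± 26.2 and 209 ± 34.6 CPM in clusters 2 and 4. Its ratio of cluster 1 to cluster 0 was only 1.05 to 1.27, while cluster 2 held 0.627 to 0.833 of the cluster 0 level. Ccna2, cyclin A2, ran from 94.7 ± 11.7 CPM in cluster 4 to 135 ± 10.8 CPM in cluster 1, and each cluster overlapped its neighbour in that order. Within each library Ccna2 was nevertheless 1.25 to 1.44 times higher in cluster 1 than in cluster 0.

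The kinases fell into 2 patterns. Plk1 and Aurka, which act on centrosomes and the spindle, were high in clusters 1 and 2 alike. Plk1 had 94.4 ± 8.39 CPM in cluster 1 and 97.9 ± 14.5 CPM in cluster 2, against 56.3 ± 15.2, 49.5 ± 7.39 and 28.4 ± 2.53 CPM in clusters 4, 3 and 0. Aurka had 119 ± 8.50 CPM in cluster 1 and 107 ± 13.5 CPM in cluster 2, against 67.5 ± 18.2, 63.6 ± 13.9 and 40.6 ± 3.72 CPM in clusters 4, 3 and 0. For both genes clusters 1 and 2 overlapped, and cluster 0 lay below cluster 3 in all libraries.

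Cdk1 and Aurkb were highest in cluster 2 and did not rise in cluster 1. Cdk1 had 199 ± 13.7 CPM in cluster 2 (185 to 215 CPM), above 161 ± 13.3 CPM in cluster 4 (146 to 178 CPM), with 137 ± 23.1, 131 ± 4.30 and 126 ± 18.2 CPM in clusters 3, 0 and 1. Its ratio of cluster 1 to cluster 0 was above 1 in 3 of 6 libraries (0.765 to 1.17). Aurkb, the kinase of the chromosomal passenger complex, had 78.6 ± 6.71 CPM in cluster 2 and 40.4 ± 3.17, 40.3 ± 5.75 and 40.4 ± 11.6 CPM in clusters 0, 1 and 3. Its 76.8 ± 41.3 CPM in cluster 4 rested on 3 to 28 UMIs per library and spread over the values of every other cluster. From cluster 0 to cluster 2, Aurkb rose 1.68 to 2.21 times and Cdk1 1.41 to 1.64 times in each library.

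Cdc20, the mitotic activator of the APC/C, showed the steepest contrast of the 10 between clusters 1 and 0. Its level in cluster 1 was 458, 445 and 388 CPM in controls 1 to 3 compared with 459, 503 and 398 CPM in cKO 1 to 3. In cluster 0 it was 76.6, 93.5 and 84.5 CPM in the controls and 85.5, 87.6 and 62.0 CPM in the cKO samples. Every library thus held 4.59 to 6.42 times more in cluster 1, and cluster 3 at 208 ± 29.3 CPM and cluster 2 at 139 ± 10.4 CPM each stood clear of their neighbour above. Ube2c, which builds the first ubiquitin links for the APC/C, had 812 ± 49.0 CPM in cluster 1, 475 ± 56.4 CPM in cluster 3, and 342 ± 29.4, 325 ± 24.0 and 306 ± 48.8 CPM in clusters 2, 0 and 4, of which the last 3 overlapped. Fzr1, the activator that follows Cdc20, did not share this order: it was highest in cluster 2 at 72.5 ± 4.99 CPM, with 56.4 ± 13.1, 52.9 ± 6.16, 40.9 ± 3.44 and 38.6 ± 6.61 CPM in clusters 4, 1, 0 and 3. Its cluster 2 level was 1.69 to 1.89 times that of cluster 0 in each library.

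Seen by where the molecules lay, cluster 1 held 69.3% of all Cdc20 UMIs, 58.3% of Ccnb1, 56.3% of Ube2c, 53.1% of Plk1 and 52.9% of Aurka, against 35.2% of all UMIs. It held 32.1% of Cdk1 and 30.6% of Aurkb UMIs, below its share of the total. Cluster 2, with 13.7% of all UMIs, held 23.6% of Aurkb, 20.9% of Plk1, 20% of Fzr1 and 19.6% of Cdk1, but 8.56% of Cdc20. Cluster 3 is the least even basis: control 3 had 25 cells there, with a median of 4654 UMIs, against 40 to 94 cells in the other libraries, and its Ccnb1 level of 172 CPM was the lowest of the 6. Platelet markers were highest in cluster 3, at 89.3 CPM (0.802 to 1.30 CPM in the other clusters). So were interstitial stroma markers at 31.5 CPM (0.802 to 4.70 CPM) and Sertoli cell markers at 32.7 CPM (11.2 to 17.1 CPM). Macrophage markers were not, at 4.11 CPM against 6.42 CPM in cluster 4. Nor were Leydig cell markers (53.7 against 57.3 CPM in cluster 1) or epithelial markers (451 against 498 CPM in cluster 1). The part of other cells in the levels of cluster 3 was not tested.

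**Figure D1:**
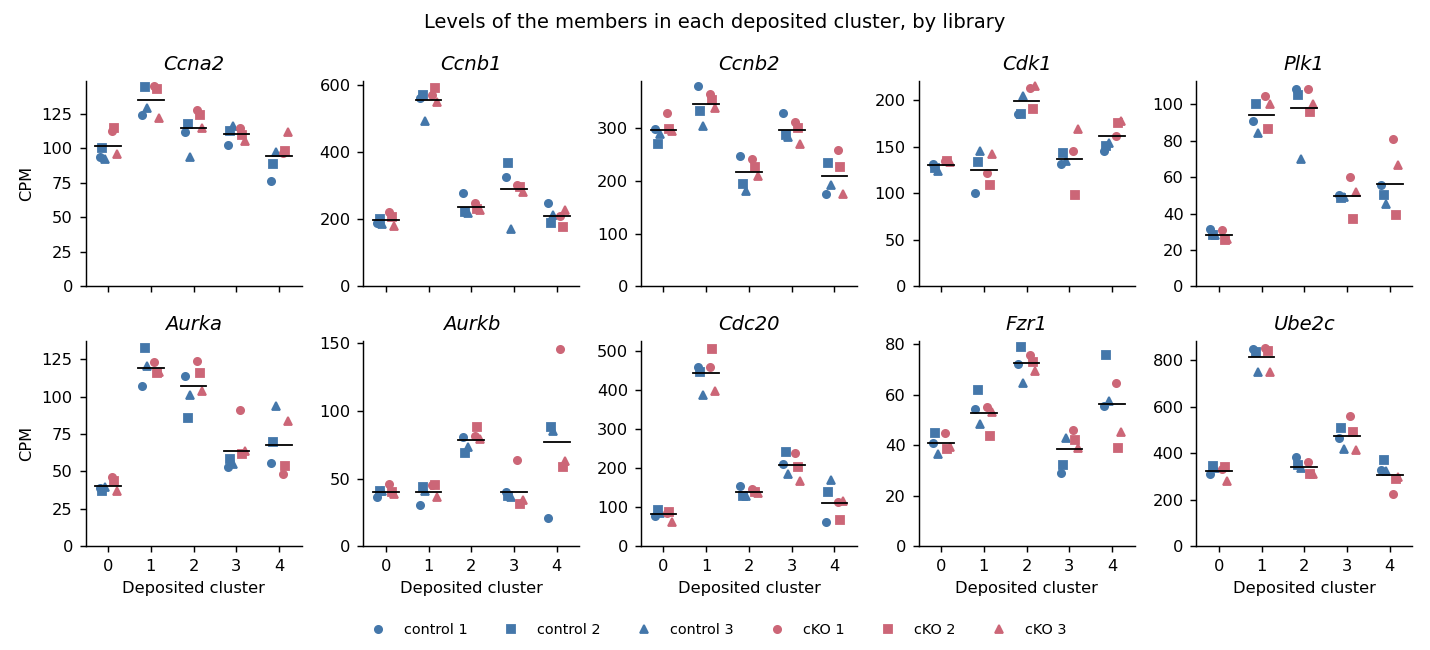
Level of each gene (CPM of summed UMIs, linear axes from 0) in clusters 0 to 4, with 1 point per library and a bar at the mean of the 6 libraries. Cdc20, Ccnb1 and Ube2c stand highest in cluster 1, Plk1 and Aurka in clusters 1 and 2, and Cdk1 and Fzr1 in cluster 2, in the libraries of both groups. Aurkb has its highest mean in cluster 2, but in 3 libraries (control 2, control 3 and cKO 1) its cluster 4 point lies higher.

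To compare cells at 1 depth, each was thinned to 10000 UMIs, which left out 456 shallower cells (43, 13 and 218 in controls 1 to 3 and another 25, 91 and 66 in cKO 1 to 3) and kept 4698. A Cdc20 UMI was found in 96.5% of cluster 1 cells and 45.6% of cluster 0 cells, with 64.9% in cluster 2, 63.6% in cluster 3 and 55% in cluster 4. Without thinning, the shares for clusters 1 and 0 were 97.6% and 54.8%. The median thinned cell of cluster 1 carried 4 Cdc20, 5 Ccnb1 and 8 Ube2c UMIs, against 0, 2 and 3 in cluster 0. Ube2c and Ccnb2 were found in nearly all cells, Ube2c in 92.2% to 99.8% and Ccnb2 in 85.9% to 96.9% of each cluster's cells, so that for these genes clusters differed in molecules per cell more than in cells with a UMI.

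Plk1 was found in 52.9% of cells of cluster 1 and 53.8% of cluster 2, against 22.0% of cluster 0, and Aurka in 63.7% and 64.9% against 32.2%. Cdk1 was found in 87.8% of cluster 2 cells against 71.3% in cluster 0 and 67.4% in cluster 1, and Aurkb in 53.8% against 31.8% and 30.5%. No cluster could serve as one known to lack these genes. As a guide to free RNA, a UMI of any of 8 erythroid genes was found in 19.8% to 24.4% of the cells of each cluster, at median depths of 12328.5 to 15517.5 UMIs before thinning, and in 5.93% to 28.7% of the cells of each library. The shares of Plk1 in cluster 0 and of Aurkb in cluster 3 (24.9%) were near that level (20.7% and 20.5% in the same clusters). Over libraries, Plk1 in cluster 0 ran from 20.4% to 25.3% and the erythroid share there from 6.59% to 26.9%. The part of free RNA in the Plk1 and Aurkb shares was not tested.

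A thinned cell held UMIs of a median of 6 of the 10 genes. In cluster 1, 42.3% of cells had 8 or more and in cluster 2 39.5%, against 9.39% in cluster 0, 18.2% in cluster 3 and 27.5% in cluster 4. No thinned cell lacked all 10, and 0.468% had 2 or fewer. By library, 22.8%, 28.5% and 25.3% of the control cells had 8 or more, against 33.2%, 27.1% and 24.1% of those from cKO samples, and these groups overlap.

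**Figure D2:**
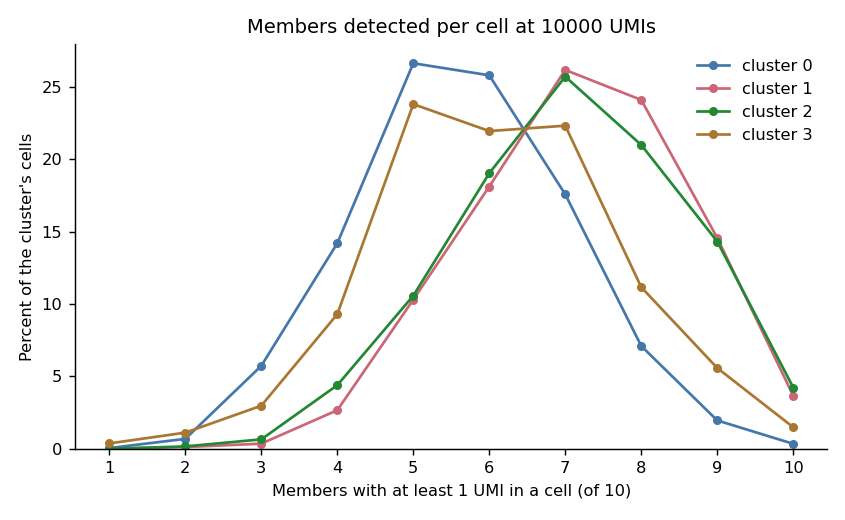
Number of the 10 genes with at least 1 UMI per cell, after thinning to 10000 UMIs, as the percent of the cells of deposited clusters 0 to 3. The curves of clusters 1 and 2 lie almost on each other with medians of 7 genes, to the right of clusters 0 and 3 with medians of 6.

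Over the cells of a library, Cdc20, Ube2c and Ccnb1 rose and fell together. The Spearman correlation of thinned UMIs between Cdc20 and Ube2c was 0.569 to 0.667 over the 6 libraries (median 0.648). Between Ccnb1 and Cdc20 it was 0.539 to 0.643 (median 0.621), and between Ccnb1 and Ube2c 0.511 to 0.617 (median 0.577). Aurka and Plk1 followed Cdc20 less closely, with medians of 0.335 and 0.327. These are descriptions over cells that share a library, and low counts pull the values toward 0.

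Of the 45 pairs, the 10 among Cdc20, Ube2c, Ccnb1, Aurka and Plk1 had the highest medians, and the next was Ccnb2 with Ube2c at 0.178. The B-type cyclins parted here: Ccnb2 had a median of at most 0.178 with any member (up to 0.266 in 1 library, with Cdc20). Its median with its partner kinase Cdk1 was -0.051 (-0.090 to -0.024), weak and below 0 in every library, and was not tested. Cdk1 with Aurkb had a median of 0.109. Part of the trio's correlation lay between clusters: within cluster 0 the median for Cdc20 and Ube2c was 0.283, within cluster 1 0.268 and within cluster 2 0.373. Within cluster 1 the highest pair was Ccnb1 with Aurka, at 0.320 (0.223 to 0.402).

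**Figure D3:**
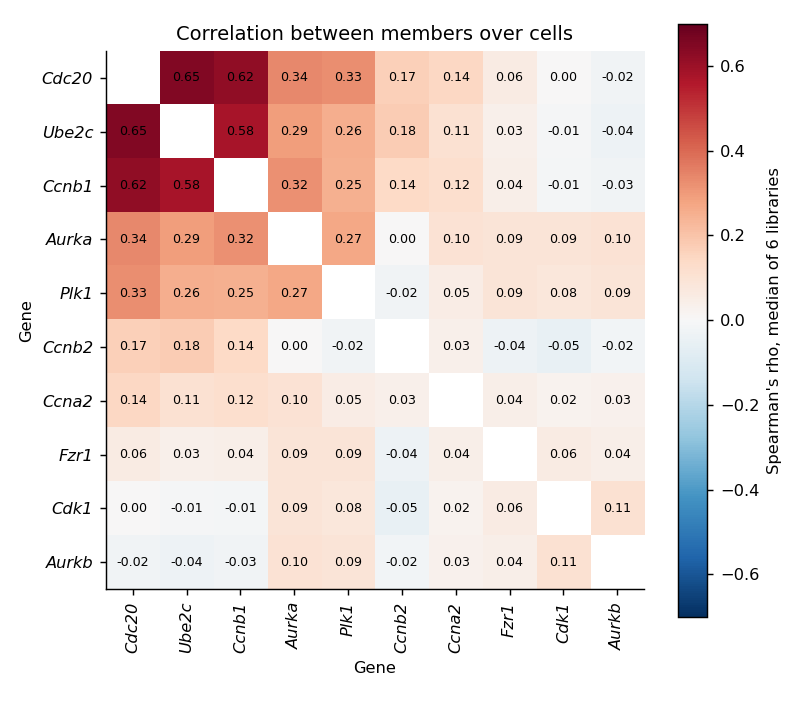
Median over 6 libraries of the Spearman correlation of thinned UMI counts for each of the 45 pairs of genes, on a colour scale. The block of Ccnb1, Cdc20 and Ube2c holds the values of 0.577 to 0.648, with Plk1 and Aurka next to it, and Cdk1 with Ccnb2 has the lowest value, -0.051.

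Over 26 sums of a library and a cluster with at least 20 cells, log2(CPM + 1) values were compared as well. These sums share libraries and depth, and so carry no test. The closest members were Ccnb1 and Ube2c (Pearson r 0.950), Cdc20 and Ube2c (0.944) and Plk1 and Aurka (0.934), then Cdk1 and Aurkb (0.8). Fzr1 was closest to Aurkb (0.728), and Ccnb2 and Cdk1 ran in opposite directions (-0.784). Among the 4953 genes whose mean reached 20 CPM, the non-member nearest to each was Hn1 for Ccnb1 and Ube2c (0.936 and 0.953), Mtdh for Cdc20 (0.878), Tubb4b for Ccna2 (0.837) and Dnajb6 for Ccnb2 (0.901). For the kinases it was Top2a, a DNA topoisomerase, for Cdk1 (0.867), Ckap2l for Plk1 (0.903), Kif20b, a mitotic kinesin, for Aurka (0.895) and Smc1a, a cohesin subunit, for Aurkb (0.894). Fzr1 was nearest to Incenp (0.853), the scaffold of the Aurora B complex.

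The comparison of genotypes asks whether germ cells of the Rb1 cKO samples hold other levels of these transcripts. In all cells together, 0 of the 10 genes passed the test and the groups overlapped for all 10. Across all 11540 genes tested, edgeR called 0% at an adjusted p under 0.05, 3.51% (405 genes) had an unadjusted p under 0.05, and 8.62% had groups without overlap. DESeq2 called 0.0347% (4 genes), none of them a member. Of the members, 0 had an unadjusted p under 0.05. The 10 together summed to 1859 ± 88.2 CPM in the controls and 1877 ± 139 CPM in the cKO samples (SD, n = 3 each).

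Of the cyclins, Ccna2 stood at 107, 119 and 106 CPM in controls 1 to 3 compared with 127, 125 and 108 CPM in cKO 1 to 3. Its cKO mean was higher, by a log2 fold change of 0.09 (95% interval -0.08 to 0.27), but cKO 3 lay among the controls. Ccnb1 stood at 348, 354 and 307 CPM in the controls and 359, 345 and 314 CPM in the cKO samples, with a log2 fold change of -0.00024 (-0.16 to 0.16). The values of cKO 2 and cKO 3 lay within the control range. Ccnb2 stood at 323, 284 and 277 CPM in the controls and 326, 303 and 293 CPM in the cKO samples, a log2 fold change of 0.05 (-0.12 to 0.21). For all 3 cyclins control 3 was the lowest library.

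Of the kinases, Cdk1 stood at 126, 138 and 145 CPM in the controls and 143, 133 and 151 CPM in the cKO samples, a log2 fold change of 0.04 (-0.16 to 0.25). Plk1 had 63.6, 65.9 and 55.8 CPM in the controls and 72.0, 57.7 and 62.4 CPM in the cKO samples, and 0.04 (-0.17 to 0.25). In both genes the cKO values lay on either side of the control median. Aurka had 73.6, 80.4 and 79.7 CPM in the controls and 89.0, 80.7 and 74.4 CPM in the cKO samples, and 0.04 (-0.14 to 0.23). Aurkb had 39.1, 45.8 and 46.2 CPM in the controls and 53.7, 48.9 and 43.4 CPM in the cKO samples. Its log2 fold change of 0.13 (-0.10 to 0.36) was the largest of the 10, with an unadjusted p of 0.23 by edgeR and cKO 3 below 2 of the controls. It was 0.05 without control 1, below Ccnb2 at 0.11 and Ccna2 at 0.07, and up to 0.20 without other libraries.

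Of the APC/C genes, Cdc20 stood at 236, 240 and 206 CPM in the controls and 243, 242 and 189 CPM in the cKO samples, a log2 fold change of -0.03 (-0.25 to 0.18). The libraries numbered 3 were the lowest of their groups, and the other 4 lay close together above both. Ube2c had 529, 541 and 490 CPM in the controls and 541, 512 and 447 CPM in the cKO samples, and -0.07 (-0.24 to 0.09). Fzr1 had 48.8, 54.8 and 45.6 CPM in the controls and 53.7, 46.1 and 47.9 CPM in the cKO samples, and -0.03 (-0.23 to 0.17). Of the 10 log2 fold changes 6 were above 0, as were 50.1% of all genes, and their median was 0.04. The edgeR adjusted p was 0.994 for 9 genes and 0.9997 for Ccnb1. The intervals leave room for changes of this small size, and the missed threshold does not show equal levels.

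**Figure D4:**
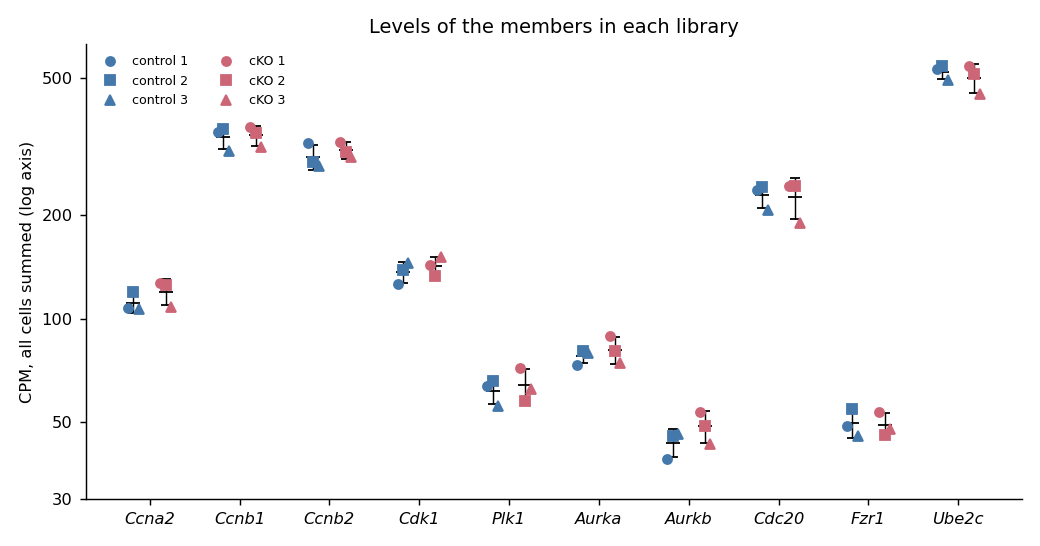
Level of each gene (CPM of all cells summed, log axis) in each of 3 control and 3 cKO libraries, with bars for each group's mean and SD. The groups overlap in all 10 genes.

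The share of thinned cells with a UMI overlapped between the groups for all 10 genes as well. At the alternative depth of 5000 UMIs Ube2c did not overlap, with 84.4%, 84.8% and 83.4% of control cells against 83.3%, 83.0% and 81.6% in cKO 1 to 3, and the other 9 did. The nearest libraries there were control 3 at 83.37% and cKO 1 at 83.33%, from a single random thinning. Without thinning Ube2c overlapped. How many of all genes lack overlap in this measure was not computed, so no difference is read from it. Cdc20 was found in 65.6%, 72.7% and 69.5% of the control cells and in 71.2%, 68.2% and 63.1% of those from cKO samples (72.0%, 82.6% and 74.6% against 76.0%, 73.0% and 70.5% without thinning). Plk1 was found in 37.4%, 38.1% and 36.4% of the control cells and in 48.6%, 36.8% and 37.1% of those from cKO samples. The high value was that of cKO 1 alone, the library with the least erythroid RNA, whose part in it was not tested.

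Cells of cluster 1, rich in Cdc20, Ccnb1 and Ube2c, made up 38.4%, 37.7% and 38.3% of controls 1 to 3 and 36.3%, 33.8% and 33.5% of cKO 1 to 3. These shares do not overlap. They were not tested, and the borders of the clusters depend on the expression of such genes. Cluster 1 was the only cluster set apart in this way, and the shares of clusters 0, 2, 3 and 4 overlapped. For cluster 0 the range was 40.23% to 44.76% (controls) and 39.79% to 44.5% (cKO). For cluster 2 it was 9.603% to 13.15% (controls) and 12.2% to 14.29% (cKO). With every library given the same mix of clusters, the log2 ratio of group means went from 0.01 to 0.06 for Ccnb1 and from -0.02 to 0.03 for Cdc20, and the groups still overlapped in all 10 genes.

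Within clusters, 0 of 10 genes passed the test in each of clusters 0, 1, 2 and 3, where edgeR called 0% of 10091, 9889, 7895 and 5996 genes. DESeq2 also called 0% in each. At an unadjusted p under 0.05 edgeR gave 3.88%, 3.37%, 4.04% and 3.37% of genes, and 0 members in any of the clusters. In cluster 0, Cdk1 was the member without overlap, at 131, 127 and 125 CPM in the controls and 134, 135 and 134 CPM in the cKO samples. The log2 fold change was 0.06 (95% interval -0.12 to 0.23). Of all genes tested there, 8.99% had groups without overlap and 5.21% were higher in the cKO samples in this way. In cluster 3, Aurka was the member without overlap, at 53.0, 58.0 and 55.1 CPM in the controls and 90.8, 61.5 and 63.4 CPM in the cKO samples, beside 9.06% of genes (5.02% higher). Its log2 fold change of 0.34 (-0.10 to 0.78; edgeR adjusted p 0.9997) was 0.20 without cKO 1, 0.38 without control 2 (the library with the platelet markers) and 0.35 without control 3.

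In clusters 1 and 2 all members overlapped, beside 8.87% and 9.03% of genes without overlap. The log2 fold changes ran from -0.13 (Fzr1) to 0.12 (Aurkb) in cluster 1 and from -0.15 (Ube2c) to 0.18 (Ccna2) in cluster 2. They were above 0 for 6, 6, 8 and 6 members in clusters 0 to 3, beside 49.7%, 49.7%, 48.5% and 49.6% of all genes. In cluster 3, 7 of the 10 members changed sign under 1 or more of the 10 alternatives. Ube2c was the member below 0 in clusters 0, 1 and 2, at -0.07, -0.02 and -0.15.

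Cluster 4 was too small for the tests, with 10 to 27 cells per library. Cdk1 there was 146, 151 and 155 CPM in controls 1 to 3 compared with 162, 176 and 178 CPM in cKO 1 to 3, from 20 to 51 UMIs. Ube2c was 327, 372 and 324 CPM in the controls and 226, 289 and 297 CPM in the cKO samples, from 28 to 107 UMIs. The groups did not overlap for these 2 of the 10 genes, which were singled out after their values were seen, as for 9.39% of the 2685 genes there that passed the low-count filter. The other 8 overlapped.

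Whether the genotype difference itself varied between clusters was tested with an interaction term over sums of libraries and clusters. The error of this fit comes from the sums of clusters 0 to 3 together, not from the clusters compared alone. Its intervals and p-values therefore need not match the spread of a single contrast over the libraries. For Cdc20 the log2 fold change was higher in cluster 1 than in cluster 0, by 0.24 ± 0.08 (SE; 95% interval 0.08 to 0.39), with an unadjusted p of 0.00402 but an edgeR adjusted p of 0.9994. In that contrast edgeR called 0.00997% of 10029 genes and 4% had an unadjusted p under 0.05. The ratio of cluster 1 to cluster 0 behind this value was 5.99, 4.76 and 4.59 in controls 1 to 3 compared with 5.37, 5.75 and 6.42 in cKO 1 to 3, so control 1 lay within the cKO range. The result rests on single libraries: without control 1 the difference was 0.36 with an adjusted p of 0.0445, which passed, and without control 3 or cKO 3 it was 0.13 and 0.15 with unadjusted p of 0.163 and 0.0951. Cdc20 was named first for its unadjusted p, the lowest of the members in this contrast. Plk1 had a slightly larger difference, 0.243 against 0.235 for Cdc20. Its 95% interval was -0.0016 to 0.487, with an edgeR unadjusted p of 0.0515.

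Plk1 had the largest difference of the members between clusters 2 and 0, at 0.33 ± 0.15 (0.05 to 0.62; unadjusted p 0.0230, edgeR adjusted p 1), where 0% of genes were called and 4.38% had an unadjusted p under 0.05. Without control 3, whose Plk1 level in cluster 2 was 70.1 CPM against 95.7 to 109 CPM in the other libraries, it was 0.08. In the separate fits per cluster, the Plk1 log2 fold change was 0.11 in cluster 2 and -0.13 in cluster 0. Between clusters 3 and 0 the largest difference was that of Fzr1, at 0.49 ± 0.26 (-0.02 to 0.99, edgeR adjusted p 0.861). There 0.00997% of genes were called and 5.82% had an unadjusted p under 0.05. The Fzr1 level in cluster 3 rested on 7 to 48 UMIs per library.

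**Figure D5:**
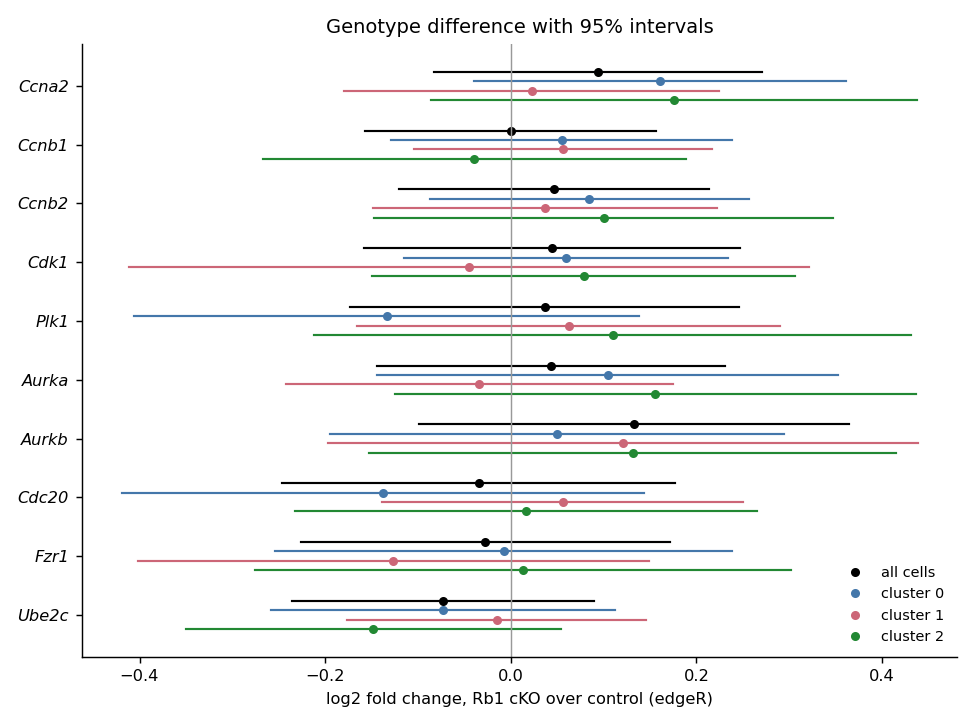
Log2 fold change of cKO against control for each gene in all cells and in clusters 0 to 2, from edgeR, with 95% intervals. All intervals include 0.

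Genes that act around these members were taken from 7 lists arranged by role, and 0 genes of any list were called in all cells by edgeR. Of the APC/C core subunits, 5 of 14 had a positive log2 fold change (median -0.03). Anapc11, the RING subunit, had 341 ± 19.0 CPM in the controls and 358 ± 7.17 CPM in the cKO samples. Anapc16 had the largest difference, -0.23 ± 0.10 (SE), with 53.4, 53.6 and 55.2 CPM for controls 1 to 3 beside 42.1, 50.2 and 47.2 CPM for cKO 1 to 3, with an unadjusted p of 0.0417 and an adjusted p of 0.994 by edgeR. Of the second E2, the inhibitors and the spindle checkpoint, 7 of 10 were positive (median 0.06). Ube2s, the E2 that extends the chains Ube2c begins, had 1667 ± 63.4 CPM in the controls and 1619 ± 77.7 CPM in the cKO samples, and the checkpoint gene Mad1l1 14.2 ± 2.06 and 17.2 ± 1.003 CPM. Of other APC/C substrates 3 of 10 were positive (median -0.03), with Gmnn, geminin, at 311 ± 19.3 and 340 ± 12.2 CPM and the kinase Nek2 at 34.8 ± 7.28 and 29.8 ± 3.11 CPM.

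Among the other cyclins and kinases, 4 of 6 were tested and 2 were positive (median -0.08, which became 0.14 without control 3, 0.04 without cKO 2 and -0.19 without cKO 3). Plk4, the kinase of centriole duplication, had 99.5 ± 36.5 CPM in the controls and 90.7 ± 22.7 CPM in the cKO samples, and Aurkc 14.5 ± 7.35 and 11.4 ± 1.84 CPM. Of the Aurora and Plk1 partners 2 of 7 were positive (median -0.03), with Aurkaip1 at 295 ± 24.2 and 281 ± 16.2 CPM and the centrosomal Cep192 at 21.3 ± 3.47 and 23.6 ± 3.87 CPM. Of the genes that set Cdk1 phosphorylation and its reversal by PP2A-B55, 7 of 13 were positive (median 0.0029), with the phosphatase inhibitor Arpp19 at 459 ± 65.6 and 446 ± 49.1 CPM and the B55 subunit Ppp2r2d at 32.3 ± 11.8 and 27.1 ± 0.802 CPM. In this list 1 gene, Ensa, had an unadjusted p under 0.05 (0.0303, adjusted p 0.994 by edgeR), beside 3.51% of all genes. Ensa stood at 37.5, 38.7 and 38.0 CPM in controls 1 to 3 and 30.5, 29.7 and 35.5 CPM in cKO 1 to 3. Of the regulators of G2/M gene transcription, the group that includes the DREAM, MMB and NF-Y subunits, 8 of 15 were positive (median 0.02), with Rbbp4 at 174 ± 4.75 and 179 ± 11.1 CPM and Lin52 at 3.15 ± 0.688 and 4.11 ± 0.945 CPM. For each gene pair of values the control mean comes first (SD, n = 3 each), and all genes tested had a median of 0.00010.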

How the data were processed

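The deposited table holds UMI counts, whole numbers per gene and barcode, which the authors made from 10x v2 libraries; Cell Ranger, Seurat 3.0 and the build mm10 are named in the submitters' processing notes. Samples and clusters of the barcodes come from the authors' metadata, whose clusters were made at a resolution of 0.2. The annotation release and the doublet treatment are not given in the sources used here. The genes and lists were chosen with earlier results of these data known.

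The cell filter asked for 500 or more genes and less than 10% mitochondrial UMIs. Raw counts were summed per sample, and per sample and cluster where every sample had at least 20 cells (clusters 0 to 3). They were tested with edgeR 4.0.16 in R 4.3.3 (robust quasi-likelihood test, filterByExpr, TMM, two-sided, Benjamini-Hochberg over all genes tested, threshold 0.05); the scripts were tested on simulated data. The interaction fit had sample as a block. Intervals are 95% intervals from that test, and SE is the log2 fold change over the root of its F. CPM are without TMM factors. DESeq2 1.42.0, RLE factors, no filter, all barcodes, removal of the 160 cells (3.10%) that Scrublet (scanpy 1.11.5) called doublets, a replicate block and each library left out were alternatives. Cells were thinned with numpy 2.4.6.

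Named genes are all members, Rb1, from each role list the gene with the highest mean CPM and that with the largest absolute log2 fold change, and the non-member nearest to each member's pattern. Ensa was added for its unadjusted p. The table gives no strand setting, and Ube2c, Ccna2, Cdc20, Plk1 and Fzr1 overlap a gene on the opposite strand (Tnnc2, Exosc9, Elovl1, Gm44985 and Mfsd12); Ccnb1 and Ccnb2 have pseudogenes in GENCODE M21, which were given no row in the table, so their reads could be split or lost.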

Additional observations from a re-analysis of the deposited data

How the results depend on the processing

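Whether the replicate numbers pair the samples is not given in the labels. Same-numbered libraries had correlations of deviations of -0.135, 0.227 and 0.198 in all cells. These cannot decide it, because the 3 deviations within a group depend on each other. With the replicate block, edgeR called 0 genes in all cells, and 261 higher and 244 lower had an unadjusted p under 0.05 against 205 and 200 without it; Ccnb1 in all cells had a log2 fold change of 7.1e-05, and 1 gene was called higher in cluster 3. In all cells, controls 2 and 3 correlated best with the cKO library of their own number, and control 1 with cKO 2 (0.161).

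No member was called in all cells or in clusters 0 to 3 under any alternative, and the smallest adjusted p of a member there was 0.756, 0.773, 0.881, 0.758 and 0.901. Against 0 genes called in all cells, DESeq2 called 1 higher and 3 lower, and edgeR with no low-count filter called 2 higher and 4 lower. Without the filter it called 7 higher and 8 lower in cluster 0, 1 and 7 in cluster 1, 1 and 2 in cluster 2, and 3 and 14 in cluster 3. For the difference between clusters, the fit without the filter called 3 higher for cluster 1 against 0 (1 with it), 1 lower for cluster 2 against 0 (0 with it) and 2 lower for cluster 3 against 0 (1 with it).

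Leaving out 1 library at a time gave 0 to 1 genes higher and 0 to 3 lower in all cells (the highest counts without control 3), 0 to 1 in each direction in clusters 0, 1 and 2, and 0 to 1 higher and 0 to 3 lower in cluster 3. It gave 0 to 4 higher and 0 to 1 lower for cluster 1 against 0, 0 to 1 in each direction for cluster 2 against 0, and 0 to 3 higher and 0 to 20 lower for cluster 3 against 0, where the 20 came without control 1. Of the members, 0 to 1 was called for cluster 1 against 0: Cdc20 without control 1.

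Signs of small log2 fold changes turned with single libraries. Over the left-out libraries, the values in all cells were -0.0044 to 0.088 for Aurka, -0.042 to 0.036 for Ccnb1 (0.0017 without Scrublet doublets), -0.097 to 0.061 for Cdc20, -0.020 to 0.12 for Cdk1, -0.072 to 0.027 for Fzr1 and -0.033 to 0.10 for Plk1. In cluster 0 they were -0.0086 to 0.094 for Aurkb and -0.071 to 0.043 for Fzr1. In cluster 1 they were -0.11 to 0.024 for Aurka, -0.018 to 0.20 for Aurkb, -0.022 to 0.082 for Ccna2, -0.021 to 0.13 for Ccnb2, -0.025 to 0.12 for Cdc20, -0.19 to 0.10 for Cdk1 and -0.052 to 0.021 for Ube2c. In cluster 2 they were -0.097 to 0.072 for Ccnb1, -0.038 to 0.10 for Cdc20, -0.055 to 0.064 for Fzr1 and -0.084 to 0.24 for Plk1. In cluster 3, 7 of 10 members had both signs over the alternatives, Aurka and Fzr1 were above 0 in all of them and Cdc20 below. The cause was not tested for any of these. Shares of cells with a UMI moved with the depth to which cells were thinned for all 10 members: for Cdc20 in cluster 1, 84.2% at 5000 UMIs against 96.5% at 10000.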
